A study of Homo sapiens with 4 samples.

Results

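The kinesin motor family was followed in T47D cells, a long-established human line from a luminal breast carcinoma, with and without the flavonoid baicalein, which plants of the genus Scutellaria make. Members were the rows of the count table whose Ensembl identifier carries a protein-coding gene symbol made of KIF and a number. They are 35 of the 20515 rows, or of 14680 protein-coding rows. By name they were divided into 12 mitotic kinesins, 12 transport kinesins and 11 ciliary, microtubule-regulating and other kinesins. KIF1A, KIF2B, KIF19 and KIF25 were not analysed here. The 2 control samples are T47D cells labelled as having no treatment, with no vehicle named, and the 2 other samples are T47D cells labelled baicalein treated. The sources used here do not give dose and duration. Poly(A) RNA of each sample was sequenced. All 4 samples are of the one cell line. No label states that replicates were grown separately, so the p-values reflect only how far these samples differ, possibly for technical reasons.

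Kinesins are motor proteins that use ATP to move along microtubules or to take their ends apart. The mitotic members build and stretch the spindle, move chromosomes and organise the midzone at which the cell divides, and the genes of most of them are known to be transcribed mainly in late cell cycle phases of dividing cells. The transport members carry vesicles, mitochondria, endosomes and messenger RNA along microtubules, mostly towards the cell periphery, and are needed in resting as well as dividing cells. Other members act in cilia or set microtubule length.

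Library totals were 45341857 (control 1), 45618604 (control 2), 56732569 (baicalein 1) and 38597207 (baicalein 2) counts. Levels are CPM, counts scaled to library size by TMM factors, with library 1 of a group always given first, and a floor of 3 counts stood for 0.0549 to 0.0805 CPM in the 4 libraries, which covers counting error only. Fold changes compare baicalein with control in edgeR's quasi-likelihood test over all 18369 genes that passed a filter on low counts, with Benjamini-Hochberg adjustment and a threshold of 0.05. Log2 fold changes are given with standard errors (SE), and ± is the SD over the 2 libraries of a group. All 8 luminal breast epithelial markers looked at were present (the lowest value was 37.8 CPM, for ESR1 in baicalein 2). In baicalein 7 of them were lower, against 37.6% of all tested genes. Of 10 markers of immune, stromal, endothelial and basal cells, 6 were not analysed here, PTPRC, CD68 and COL1A2 did not exceed 0.362 CPM, and the collagen gene COL1A1 stood at 90.0 and 100.4 CPM in control against 149.9 and 139.9 CPM in baicalein. In bulk RNA, fewer cells of a type and less RNA per cell cannot be told apart.

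Of the 33 kinesin genes that passed the filter, 19 were lower and 10 higher in baicalein, and 4 did not pass the test. Over all tested genes 37.6% were lower and 37.4% higher, 75.0% in all, and over tested protein-coding genes 41.9% and 39.2%, so that a call alone is the usual state of a gene in these data. By size, 14 of the 33 kinesin genes fell at least 2-fold, against 15.2% of all tested genes, and 3 rose at least 2-fold, against 12.2%. In 32 of the 33 both baicalein libraries lay on one side of both controls, as they did for 86.9% of all tested genes, and KIF3C was the exception. The median log2 fold change of the family was -0.73, and that of all tested genes 0.0017. By group, 11 of 11 tested mitotic kinesins were lower, 6 of 11 transport kinesins were higher and 3 lower, and of 11 other kinesins 5 were lower and 4 higher. The medians of the 3 groups were -1.68, 0.29 and -0.40. The middle value, of the transport kinesins, was 0.46 without control 1 and 0.15 without control 2. Each such run filtered the remaining libraries anew, so its set of transport genes may differ from that of the main run. Changes of the mitotic group ranged from -2.63 to -0.74 and those of the transport group from -1.06 to 1.2. The ranges overlapped, since the transport kinesins KIF1C and KIF13B fell further than the mitotic kinesin KIF2C.

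**Figure D1:**
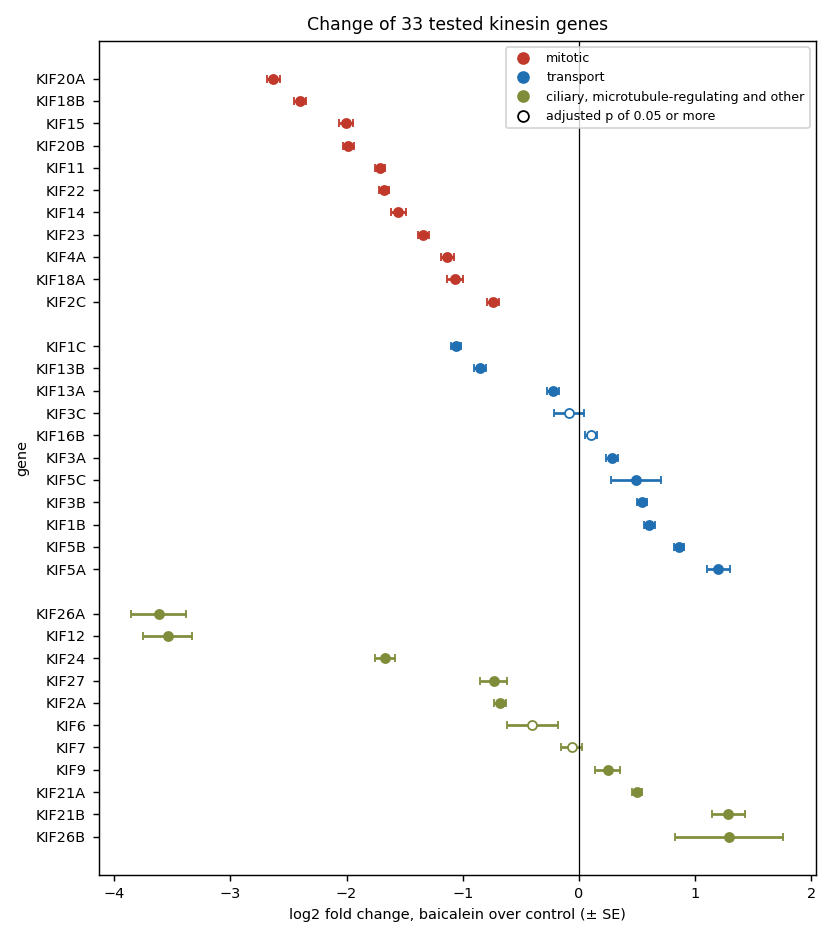
Log2 fold change (baicalein over control, x axis) with its SE for each of the 33 tested kinesin genes (y axis), by group and in order of size; filled points passed an adjusted p of 0.05 in edgeR's test. All 11 mitotic points lie left of 0, between -2.63 and -0.74, while transport points lie on both sides.

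Among the mitotic kinesins, KIF20A (ENSG00000112984, chromosome 5, positions 138178719 to 138187715 of GRCh38), a motor of the central spindle that is needed for cytokinesis, had the largest fall. Its level was 83.5 and 80.6 CPM in control against 13.5 and 13.0 CPM in baicalein, a 6.19-fold fall (log2 fold change -2.63, SE 0.06, edgeR adjusted p = 8.88e-21). KIF18B, which shortens astral microtubules, stood at 106 and 112 CPM in control against 20.6 and 20.8 CPM in baicalein, 5.27-fold lower (SE of the log2 value 0.05, edgeR adjusted p = 1.18e-20). For both genes the higher baicalein library was far below the lower control, and the libraries of one group lay close together. KIF15, a spindle motor that acts beside KIF11, was at 54.9 and 52.4 CPM in control against 13.7 and 13.0 CPM in baicalein (log2 fold change -2.01, edgeR adjusted p = 2.71e-18). KIF20B, a midzone motor of abscission, was at 159 and 154 CPM in control against 40.4 and 38.5 CPM in baicalein, a 3.96-fold fall (SE of the log2 value 0.05, edgeR adjusted p = 2.41e-20). The baicalein libraries of both genes lay far below both controls.

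KIF11 (ENSG00000138160, chromosome 10, positions 92593286 to 92655395), the motor that pushes spindle poles apart and the target of antimitotic kinesin inhibitors, had the highest level per length of the 35 KIF-numbered genes in control cells. It had 216 and 209.9 CPM in control against 65.7 and 64.0 CPM in baicalein (log2 fold change -1.71, SE 0.04, edgeR adjusted p = 2.19e-19). KIF22, a chromosome-arm motor that binds DNA, was the next of them by length-scaled level and stood at 158 and 163 CPM in control against 50.8 and 49.3 CPM in baicalein, a 3.20-fold fall (SE of the log2 value 0.04, edgeR adjusted p = 2.23e-19). The 5 remaining tested members fell less. KIF14, which recruits citron kinase to the midbody, had a log2 fold change of -1.55 from 70.9 and 62.4 to 23.3 and 22.0 CPM. KIF23, the motor subunit of centralspindlin at the midzone, had -1.34 from 106 and 104 to 42.1 and 41.0 CPM. KIF4A, a chromosome-bound motor that also limits midzone length, had -1.13 from 58.9 and 60.0 to 27.7 and 26.4 CPM. KIF18A, which damps chromosome movements at the metaphase plate, fell 2.10-fold from 36.9 and 33 to 17.1 and 16.2 CPM. KIF2C, a depolymerase that corrects wrong attachments at centromeres, fell least, 1.67-fold, from 81.3 and 86.1 to 49.3 and 51.2 CPM. Falls within the group thus ranged from 1.67-fold to 6.19-fold. The groups of libraries did not overlap in any of the 11, nor did they in 86.9% of all tested genes. KIF4B, an intronless copy of KIF4A, did not pass the filter with 5 and 7 counts in control against 4 and 2 in baicalein, and reads shared with KIF4A make its split uncertain.

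Exons of KIF20A, KIF18A, KIF4A, KIF23, KIF22 and KIF2C overlap annotated genes on the opposite strand, and the sources used here do not say whether counting used strand. BRD8 and CDC23, which share 132 and 68 bases of exon with KIF20A, had log2 fold changes of -0.36 and -0.22. KIF23-AS1 on the opposite strand of KIF23 (231 shared bases) rose from 2.10 and 2.23 to 4.10 and 4.22 CPM (log2 fold change 0.94), against the fall of KIF23. The part of such shared reads in these values was not tested.

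**Figure D2:**
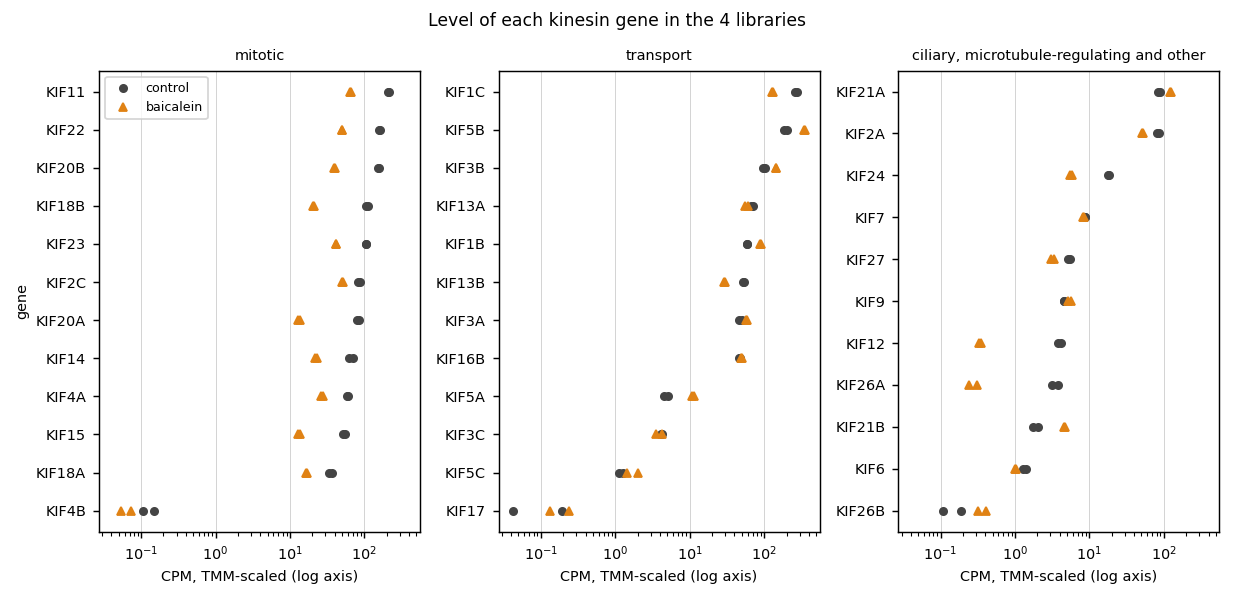
Level of each of the 35 kinesin genes (y axis) in every library as TMM-scaled CPM on a log x axis, in 3 panels by group; circles are the 2 controls and triangles the 2 baicalein libraries. In the mitotic panel the triangles of all 11 tested genes lie left of the circles, and KIF1C and KIF5B move in opposite directions at the top of the transport panel.

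The start regions of the kinesin genes were searched for letters that are known from cell-cycle promoters, to show what the mitotic members share in sequence. The windows run from 250 bases before to 50 bases after the gene start in RefSeq (GRCh38.p14), and 30 of the 35 genes had at least 1 window. Both strands were searched for 3 patterns. The first was TTTGAA, the letters of the cell cycle genes homology region (CHR), which the DREAM and MMB complexes are known to bind. Only these letters were searched for the CHR, so any other form of it would be missed. The E2F core was TTCCCGC or one of its variants, which were TTGGCGC, then with other middle letters TTCGCGC, and last the form written TTGCCGC. The NF-Y box was searched as CCAAT. The CHR letters were found in 9 of 12 mitotic genes, in 1 of 10 transport genes (KIF5B) and in 0 of 8 other genes. That is 75.0% of the mitotic genes with a window, against 13.7% of 11111 tested protein-coding genes and 18.2% of all 27305 genes with a window. By windows the shares were 69.2%, 10.5% and 15.2%. The 12 mitotic genes include KIF4B, a copy of KIF4A that was not tested for a change, and the CHR letters were found in both. The NF-Y box letters were found in 10 of 12 mitotic, 4 of 10 transport and 3 of 8 other genes, or 83.3%, 40.0% and 37.5%, against 43.1% of tested protein-coding genes and 39.7% of all genes. The E2F core was in 3 of 12 mitotic genes (KIF15, KIF18A and KIF18B), in 4 of 10 transport genes and in 1 of 8 other genes, or 25.0%, 40.0% and 12.5%, against 24.7% of tested protein-coding genes and 15.3% of all genes. The mitotic share with an E2F core was thus near that of tested genes, as were the transport and other shares with the NF-Y box letters. Such a match is a description of letters, not a binding site.

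The 120 bases before the start are shown for 5 mitotic genes with TTTGAA in that stretch, for the mitotic genes with the largest and the smallest fall, which lack it, and for the 2 most abundant transport genes, 1 that rose and 1 that fell. They are written 5′ to 3′ on the gene's strand in GRCh38.p14, with TTTGAA, E2F core and CCAAT letters of either strand in capitals, so that a match of the other strand reads as its reverse complement.
KIF11 (chr10:92593010-92593129, plus strand): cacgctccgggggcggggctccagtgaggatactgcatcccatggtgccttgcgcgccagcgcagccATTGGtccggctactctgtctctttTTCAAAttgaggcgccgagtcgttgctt
KIF15 (chr3:44761674-44761793, plus strand): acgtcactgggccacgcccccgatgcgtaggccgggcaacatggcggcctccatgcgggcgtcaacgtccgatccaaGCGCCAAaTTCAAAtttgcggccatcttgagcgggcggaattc
KIF18A (chr11:28108157-28108276, minus strand): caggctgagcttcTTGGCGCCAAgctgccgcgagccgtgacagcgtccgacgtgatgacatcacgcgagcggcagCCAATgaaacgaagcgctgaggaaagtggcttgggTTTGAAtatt
KIF23 (chr15:69414229-69414348, plus strand): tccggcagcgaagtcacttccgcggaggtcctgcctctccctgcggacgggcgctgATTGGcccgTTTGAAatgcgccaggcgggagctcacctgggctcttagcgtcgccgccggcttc
KIF4A (chrX:70289984-70290103, plus strand): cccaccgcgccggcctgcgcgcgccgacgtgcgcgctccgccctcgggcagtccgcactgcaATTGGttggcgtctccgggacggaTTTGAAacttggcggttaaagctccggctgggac
KIF20A (chr5:138178992-138179111, plus strand): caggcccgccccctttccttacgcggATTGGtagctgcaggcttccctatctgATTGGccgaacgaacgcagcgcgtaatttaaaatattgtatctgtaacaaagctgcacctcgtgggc
KIF2C (chr1:44739717-44739836, plus strand): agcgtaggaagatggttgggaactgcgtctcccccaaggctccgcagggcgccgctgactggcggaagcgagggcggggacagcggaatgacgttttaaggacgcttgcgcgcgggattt
KIF5B (chr10:32056426-32056545, minus strand): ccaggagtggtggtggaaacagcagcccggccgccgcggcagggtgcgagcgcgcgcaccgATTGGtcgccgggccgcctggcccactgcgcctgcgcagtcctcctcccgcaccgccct
KIF1C (chr17:4997830-4997949, plus strand): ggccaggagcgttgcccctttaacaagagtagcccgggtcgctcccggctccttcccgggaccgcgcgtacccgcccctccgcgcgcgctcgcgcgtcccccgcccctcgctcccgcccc
In KIF11, KIF23, KIF4A and KIF18A the TTTGAA letters lie closer to the start than a CCAAT, ending 5 to 50 bases before it. In KIF15 they follow an E2F core that ends 37 bases before the start, with 1 base between the patterns. KIF18A has overlapping E2F cores on the 2 strands. In KIF14, KIF18B, KIF20B and KIF4B the TTTGAA letters lie after the start and are not shown. KIF20A, with the largest fall of the group, has CCAAT letters at 2 places and no TTTGAA in its window, and KIF2C, with the smallest, has none of the 3 patterns. KIF22 is the other mitotic gene without TTTGAA. The single TTTGAA match of KIF5B lies 135 bases or more before the start, outside the stretch shown. An E2F core of KIF1C, at -142 to -136 from the start, also lies outside the stretch shown.

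**Figure D3:**
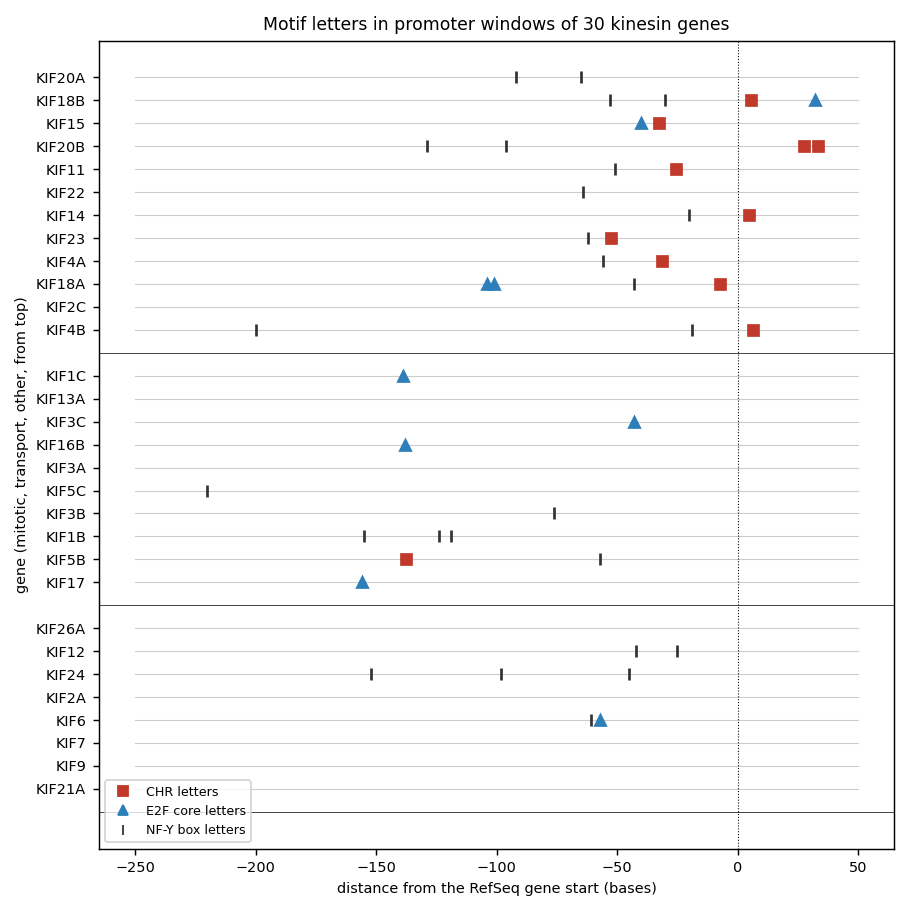
Position of CHR (squares), E2F core (triangles) and NF-Y box (bars) letters by distance from the RefSeq gene start (x axis, bases) for the 30 kinesin genes with a window (y axis), in the order mitotic, transport and other; windows of genes with several starts are laid over each other. The 9 mitotic genes with CHR letters have them within 55 bases of the start.

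Transport kinesins moved in both directions. KIF5B (ENSG00000170759, chromosome 10, positions 32009010 to 32056431), the ubiquitous heavy chain of conventional kinesin, rose most among the abundant ones, with 199.9 and 186 CPM in control against 346 and 355 CPM in baicalein (log2 fold change 0.86, SE 0.05, edgeR adjusted p = 7.65e-14). KIF5A, a heavy chain of the same kind known mainly from neurons, stood at 4.51 and 5.19 CPM in control against 10.8 and 11.5 CPM in baicalein, a 2.3-fold rise (SE 0.10, edgeR adjusted p = 2.19e-10). KIF5C, the other neuronal heavy chain, was lower still, at 1.29 and 1.13 CPM in control against 1.44 and 2.01 CPM in baicalein, with an edgeR adjusted p of 0.047. All 3 heavy chains were higher in both baicalein libraries than in both controls, but the call of KIF5C was lost in DESeq2 (adjusted p = 0.203), without control 2 (0.155) and without baicalein 2 (0.388), where its log2 fold change was 0.27 instead of 0.49. Both baicalein libraries lay on one side of both controls for 86.9% of all tested genes. Per length, KIF5B made up 97.5% and 97.1% of the KIF5 level in the control libraries against 96.9% and 96.7% in the treated ones, so that KIF5A remained a minor part after its rise.

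KIF1B, which carries mitochondria and synaptic vesicle precursors, rose to 1.52 times control, with 59.5 and 59.3 CPM in control against 89.4 and 91.6 CPM in baicalein (edgeR adjusted p = 3.98e-11). KIF3B and KIF3A, which pair in the heterotrimeric kinesin of cilia and vesicle transport, rose as well. KIF3B stood at 102 and 97.6 CPM in control against 144 and 147 CPM in baicalein (log2 fold change 0.54, edgeR adjusted p = 9.73e-11), and KIF3A went from 49.7 and 45.3 to 58.8 and 57.0 CPM (log2 fold change 0.29). The non-motor subunit KIFAP3 of that complex had a log2 fold change of -0.02 (SE 0.06), which did not pass. KIF3C, an alternative partner of KIF3A, had -0.09 (SE 0.13) and its libraries overlapped, and without baicalein 2 the sign turned (0.043). KIF16B, a motor of early endosomes, had 0.10 (SE 0.05), which did not pass. It passed without control 1 (adjusted p = 0.0113) and was -0.0018 with library totals alone as scaling.

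KIF1C (ENSG00000129250, chromosome 17, positions 4997948 to 5028401), a motor of vesicles, integrins and messenger RNA, went the other way from its relative KIF1B. It had the highest CPM of the 35 KIF-numbered genes in control, with 263 and 278 CPM in control against 130.5 and 129 CPM in baicalein, a 2.08-fold fall (log2 fold change -1.06, SE 0.05, edgeR adjusted p = 1.46e-15). KIF13B, a carrier of phosphoinositide-binding cargo and membrane proteins, stood at 52.6 and 53.3 CPM in control against 29.3 and 29.4 CPM in baicalein, 1.80-fold lower (edgeR adjusted p = 1.1e-12). KIF13A, which moves recycling endosomes, fell less, with a log2 fold change of -0.23 from 70.5 and 67.5 to 61.5 and 56.2 CPM, and its call was lost without baicalein 2 (adjusted p = 0.0746). KIF17, a motor of dendrites and cilia, did not pass the filter, with 9 and 2 counts in control against 13 and 5 in baicalein.

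Summed per kilobase of exon, which allows levels of different genes to be added, mitotic kinesins stood at 228 and 226 CPM per kb in control against 74.5 and 73.0 in baicalein. Transport kinesins stood at 111 and 108 CPM per kb in control against 128 and 129.8 in baicalein. The remaining members added 35.3 and 33.7 CPM per kb in control against 27.3 and 28.2 in baicalein. The mitotic share of the family level was 60.9% and 61.4% in control against 32.4% and 31.6% in baicalein, while the transport share was 29.6% and 29.4% and then 55.8% and 56.2%. The mitotic mean went from 227 ± 0.963 to 73.8 ± 1.04 CPM per kb (SD, n = 2), 3.08-fold lower, and the transport mean from 109.5 ± 1.63 to 129 ± 0.922, 1.18-fold higher. The libraries of the 2 groups did not overlap in either sum. Over all genes the sum per kb was 1.05-fold higher in baicalein. In CPM not scaled by length, the transport sum was 1.09-fold higher and that of all genes 1.07-fold higher. A sum is led by its most abundant members, which in control were KIF11 and KIF22 in the mitotic group and KIF5B and KIF1C in the transport group.

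**Figure D4:**
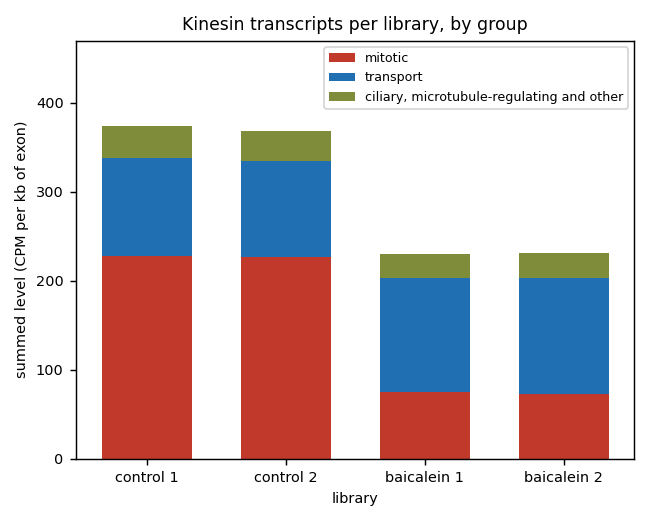
Summed level of the kinesin genes (y axis, CPM per kb of exon) in each of the 4 libraries (x axis), stacked by group. The mitotic part is 228 and 226 in control against 74.5 and 73.0 in baicalein, and the transport part is 111 and 108 and then 128 and 129.8.

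The order of the members by length-scaled level changed with it. Among the KIF-numbered genes in control, KIF11 (44.5 and 43.2 CPM per kb) and KIF22 (36.6 and 37.8) led. KIF5B (34.0 and 31.6) and KIF1C (30.7 and 32.4) came next, with values that overlapped. KIF18B, KIF2C and KIF20B followed at 22.3 to 24.1 CPM per kb, also overlapping. In baicalein, KIF5B (58.9 and 60.4 CPM per kb) led KIF3B (23.6 and 24.0) and KIF1C (15.2 and 15). The first mitotic members there were KIF2C (13.5 and 14.0) and KIF11 (13.5 and 13.2), whose values overlapped.

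**Figure D5:**
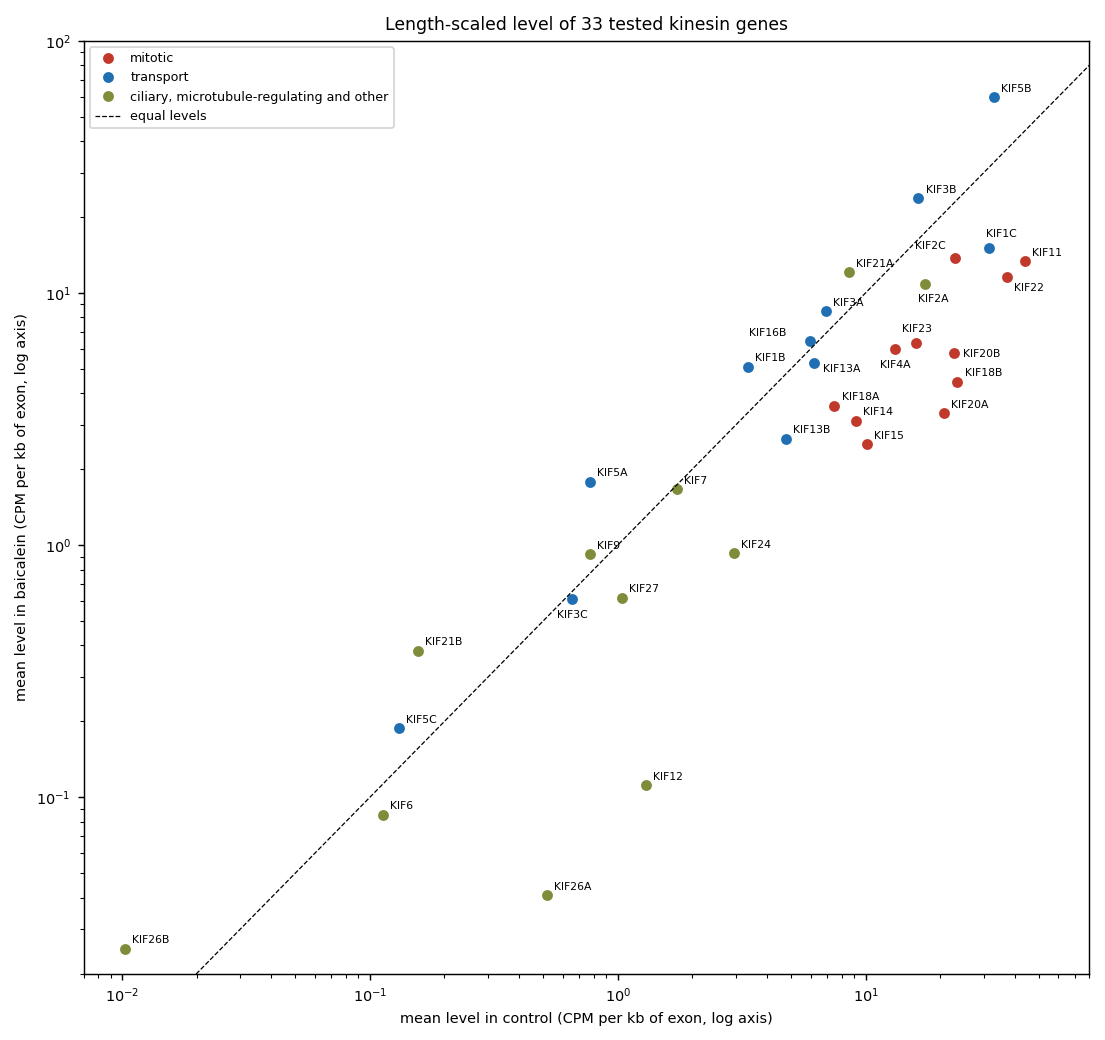
Mean level of the 33 tested kinesin genes in baicalein (y axis) against control (x axis), both in CPM per kb of exon on log axes, coloured by group; the dashed line marks equal levels. The 11 mitotic genes lie below the line, KIF5B and KIF3B lie above it, and KIF12 and KIF26A lie furthest below.

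The largest falls of the whole family were in scarce genes outside both groups. KIF26A (ENSG00000066735, chromosome 14, positions 104138723 to 104180894), an atypical kinesin that binds microtubules without moving and is known to restrain growth factor signalling, stood at 3.15 and 3.83 CPM in control against 0.311 and 0.242 CPM in baicalein, 12.3-fold lower (SE of the log2 value 0.24, edgeR adjusted p = 3.45e-12). KIF12, known from kidney and bile duct epithelium, stood at 3.77 and 4.15 CPM in control against 0.329 and 0.349 CPM in baicalein, 11.6-fold lower (SE 0.21, edgeR adjusted p = 6.75e-13). The baicalein values rest on 17 and 9 counts for KIF26A and on 18 and 13 for KIF12, so these folds are less precise than those of the mitotic genes. KIF24, a depolymerase at the mother centriole that holds back cilium formation, stood at 18.6 and 17.5 CPM in control against 5.50 and 5.91 CPM in baicalein (log2 fold change -1.67, edgeR adjusted p = 6.92e-14). KIF2A, a depolymerase of spindle poles and of interphase microtubules, stood at 85.4 and 80.8 CPM in control against 50.9 and 53.0 CPM in baicalein (log2 fold change -0.68, edgeR adjusted p = 1.98e-11), close to the -0.74 of its relative KIF2C, and its exons share 428 bases with IPO11 on the same strand (-0.24). KIF27, related to the Hedgehog pathway kinesin KIF7, fell from 5.21 and 5.44 to 3.33 and 3.03 CPM (log2 fold change -0.73). These 5 genes were lower in both baicalein libraries than in both controls. Over all tested genes, 86.9% had both baicalein libraries on one side of both controls. With KIF2A and KIF24 counted as mitotic that group had 13 of 13 lower, against 37.6% of all tested genes.

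KIF21A, a motor that slows microtubule growth at the cell cortex, stood at 90.2 and 82.8 CPM in control against 121 and 124 CPM in baicalein (log2 fold change 0.50, edgeR adjusted p = 1.25e-09). KIF21B, its scarcer relative, stood at 2.05 and 1.74 CPM in control against 4.55 and 4.73 CPM in baicalein, a 2.44-fold rise (SE of the log2 value 0.14, edgeR adjusted p = 2.77e-08). KIF26B, the relative of KIF26A, stood at 0.191 and 0.106 CPM in control against 0.402 and 0.322 CPM in baicalein, from 9 and 5 counts against 22 and 12 (log2 fold change 1.29, SE 0.47, edgeR adjusted p = 0.0161). Both KIF21 genes rose, whereas KIF26A and KIF26B changed in opposite directions, the latter with a call that was lost in DESeq2 (adjusted p = 0.171), without control 2 (0.160) and without baicalein 1 (0.194). KIF9, a kinesin of motile cilia, went from 4.53 and 4.53 to 5.16 and 5.64 CPM with an edgeR adjusted p of 0.0499, just under the threshold, and its call was lost in DESeq2 (0.24) and without any one of the 4 libraries (0.0523 to 0.224). Of the 4 calls for higher genes in this group, 2 were left without control 2 and also without baicalein 1. KIF7, which works at the tip of the primary cilium in Hedgehog signalling, had -0.06 (SE 0.09) and KIF6 -0.40 (SE 0.22), and neither passed. Exons of KIF7 share 589 bases with TICRR on the opposite strand, which fell from 51.1 and 51.1 to 14.4 and 14.5 CPM. Those of KIF9 share 870 bases with KIF9-AS1 (0.41, not passed) and 178 bases with KLHL18, both on the opposite strand. KLHL18 rose from 14.9 and 14.7 CPM in control to 23.2 and 23.1 CPM in baicalein (log2 fold change 0.64). The part of shared reads was not tested.

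Kinesin heavy chains with other names were set beside the family. KIFC1, a minus-end motor that bundles spindle microtubules, fell from 129.5 and 138 to 30.6 and 30.6 CPM (log2 fold change -2.13), and CENPE, the kinetochore motor that carries chromosomes to the spindle equator, fell from 78.0 and 70.6 to 25.1 and 26.2 CPM (-1.54). KIFC3, a minus-end motor of epithelial junctions, fell as well (-1.40), while KIFC2 (-0.08) and STARD9 (-0.37) did not pass. The sign of KIFC2 turned without control 2 (0.016). Per length, KIFC2 stood at 64.2 and 72.0 CPM per kb in control against 66.2 and 63.0 in baicalein. In both groups that was above every KIF-numbered gene. KIFC1, CENPE and KIFC3 lay inside the range of the mitotic KIF genes, and KIFC2 and STARD9 lay outside it. All 15 partners of mitotic kinesins were lower (median -1.41), against 37.6% of all tested genes. Their changes ran from -2.09 for the checkpoint kinase gene BUB1B to -0.99 for the abscission factor gene CEP55. NUSAP1 and BIRC5, which code for a spindle-bundling protein and a subunit of the chromosomal passenger complex, had -2.06 and -1.91. RACGAP1, which binds KIF23 in centralspindlin, had -1.37 beside the -1.34 of KIF23. CIT, whose product KIF14 recruits, had -1.62 beside -1.55, and PRC1, the midzone partner of KIF4A, had -1.41 beside -1.13. These pairs were picked with their values in view, and whether partners change in step with their kinesins was not tested.

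Kinesin light chains and cargo adaptors numbered 20 tested genes, of which 13 rose and 4 fell (median 0.40), against 37.4% and 37.6% of all tested genes. SPAG9, an adaptor between kinesin or dynein and kinase cargo, rose from 117 and 113 to 308 and 311 CPM (log2 fold change 1.43), and KIDINS220, a neurotrophin receptor partner carried by KIF5, rose from 62.0 and 60.8 to 112 and 112 CPM (0.87). All 4 light chain genes rose, KLC1 with 0.46, KLC2 with 0.35, KLC3 with 0.41 and KLC4 with 0.51, each a smaller log2 change than the 0.86 of the heavy chain gene KIF5B. The 4 that fell were the mitochondrial anchor RHOT2 (-0.53), KIFBP, which blocks the microtubule binding of several kinesins (-0.38), FEZ2 (-0.20) and the mitochondrial adaptor TRAK1 (-0.11). Their relatives RHOT1 (0.15), FEZ1 (0.45) and TRAK2 (0.40) were among the 13 that rose. In DESeq2 only 2 adaptor genes were lower, and also 2 without baicalein 1 or without baicalein 2.

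Cytoplasmic dynein 1 and dynactin, the motor for transport in the opposite direction, numbered 19 tested genes, of which 10 rose and 8 fell (median 0.16). Over all tested genes 37.4% were higher and 37.6% lower. The heavy chain gene DYNC1H1 rose from 424 and 445 to 864 and 871 CPM (log2 fold change 1.0), and the dynactin genes DCTN1 and DCTN4 had 0.96 and 0.80. The other rises were in the light chain gene DYNLT3 (1.01), the largest of the list, and in the intermediate chain gene DYNC1I2 (0.17). They were also in DYNC1LI1 (0.46), DYNC1LI2 (0.50), ACTR10 (0.43), DCTN2 (0.34) and DCTN6 (0.16). The falls were in the light chain genes DYNLL1 (-0.87), DYNLT1 (-0.73), DYNLL2 (-0.29) and DYNLRB1 (-0.11), in the intermediate chain gene DYNC1I1 (-0.71) and in the dynactin genes ACTR1B (-0.86), ACTR1A (-0.43) and DCTN3 (-0.55).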

How the data were processed

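The authors deposited 1 table with 20515 genes and 4 libraries, whose values are unscaled whole-number counts with no row total under 10. Per the submitters' processing notes, STAR 2.7.8a and RSEM 1.3.3 were used with cutadapt 2.3, DESeq2 1.34, FastQC 0.11.8 and GRCh38; their roles are not given there. If the counts are rounded RSEM estimates, which is not stated, genes that share reads carry assignment error. No column belonged to another series (0 of them). The sample descriptions identify the columns, and groups and replicate numbers came from the titles.

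The test was edgeR's robust quasi-likelihood test (edgeR 4.0.16, R 4.3.3) after TMM scaling and filterByExpr (at least 10 counts, total at least 15) over all 4 libraries without covariates. The SE is the size of the log2 fold change divided by the square root of F. The fit was tested on simulated data. Names came from the reference names table, which gave a symbol for 20470 identifiers, and gene types, coordinates and exon lengths from GENCODE 29, which may not be the authors' release. Lengths are the union of all annotated exons, so a level per kb is too low where long isoforms are unused. Replicates differed by more than sampling noise (mean chi-square per gene 9.61 in controls and 2.43 in baicalein).

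Members, groups and lists were chosen with earlier results of these data known. Full values are given for the 6 largest changes past the threshold and the 2 most abundant genes per kb in each group, other members more briefly, and in other lists for the 3 smallest adjusted p and those against the rest; 1 gene that this names is not reported here. Other genes named, such as RACGAP1, CIT, PRC1, CEP55, the light chains and KIFAP3, were picked with their values in view, and so were the promoters shown. Alternatives were other scalings and filters, DESeq2 1.42.0, limma-voom (limma 3.58.1), the replicate number as a block, a threshold test at 1.5-fold, leaving out each library and other memberships.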

Additional observations from a re-analysis of the deposited data

How the results depend on the processing

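All 11 tested mitotic kinesins and all 15 of their partners were lower under each alternative run. Over the members, 394 of 428 single values kept direction and side of the threshold, 29 lost the call, in 9 genes, 3 gained it, and KIF3C (0.043 without baicalein 2, with -0.24 to 0.043 over the libraries left out) and KIF16B (-0.0018 with library totals) turned sign, as did KIFC2 (0.016 without control 2, with -0.16 to 0.016 over the libraries left out). The test against a 1.5-fold change lowered the counts by its stricter question: 3090 higher and 3581 lower over all genes, 3 higher in the family, 2 in transport and 1 in other kinesins, 4 higher and 0 lower adaptors, and 4 higher and 3 lower dynein and dynactin genes. DESeq2 gave 2 higher other kinesins and 2 lower adaptors, and the cause was not tested. Leaving out 1 library gave 6128 to 6944 higher and 6294 to 6896 lower genes, 7 to 10 higher and 18 to 19 lower members, 2 to 3 higher other kinesins and 2 to 4 lower adaptors; this takes a group's lone library to be as variable as the paired ones. Library totals alone moved the median of all genes to -0.10 and the share of higher calls from 49.9% to 43.4%. With the replicate number as a block, 10 members were higher and 19 lower, as without it, and 3 adaptors were lower instead of 4; the numbers are not stated to pair the samples, and same-numbered deviations correlated at 0.0136 over genes. Depth limits KIF4B, KIF17 and KIF26B.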
